A study of Mus musculus with 36 samples.

Results

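The genes described here are 43 genes of the mouse cell division cycle, followed in enteric glial cells (EGCs), the glia of the gut nervous system. They were chosen by name, as genes known for their part in DNA replication, mitosis and the control of both. Earlier results of these data were known when the choice was made. All 43 were found among the 43472 genes of the count table. The EGCs were primary cells of wild-type (WT) C57BL/6J mouse embryos, grown from digested intestine as neurospheres, which are floating clusters kept with EGF and FGF, and then differentiated on coated plates in serum until confluent. They were left unstimulated, or received conditioned medium of digested healthy colon (H-CM) or of orthotopic colorectal tumors of MC38 cells, a mouse colon cancer line (tumor microenvironment conditioned medium, TME-CM), for 6 h, 12 h or 24 h. Each of the 9 groups has 4 libraries, 36 in all, prepared with the QuantSeq kit, which reads transcripts from their 3′ end. The comparisons ask how medium from a tumor changes these genes beside medium from healthy colon or no stimulation, and how each culture changes with time.

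A dividing cell passes from G1 to DNA synthesis (S phase), and then through G2 into mitosis. D-type cyclins, which respond to growth factors, start the passage with their kinases Cdk4 and Cdk6 by phosphorylating the retinoblastoma protein, which frees E2F factors to switch on the E-type cyclins and the replication genes. Genes of mitosis are switched on later, largely through the MuvB complex with B-Myb and Foxm1, which reads promoter elements known as CHR and is helped by NF-Y at CCAAT boxes. The CDK inhibitors Cdkn1a and Cdkn1b act as brakes. Enteric glia divide little in the healthy gut, can re-enter the cycle after injury, and divide readily in culture. The 43 genes were grouped by role into 3 D-type cyclins, 3 genes of the E-type cyclins with E2f1, 9 genes of licensing and replication, 4 of nucleotide synthesis, 8 mitotic cyclins and kinases with Foxm1, 4 genes of the spindle checkpoint and anaphase, 10 of the chromosomes, kinetochore and spindle, and 2 CDK inhibitors.

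The stretches before the transcription start of 6 genes that passed the tests at 24 h are shown because they hold, or lack, the elements just described. They come from the RefSeq promoter windows of build GRCm38.p6, which is the mm10 assembly of the count data, and are written 5′ to 3′ on the gene's strand. Each ends 1 base before the start of the gene, or 2 bases for Ube2c, and begins 150 bases before it, or 140 bases for Aurka. Capitals mark E2F elements (TTTCCCGC, TTTGGCGC, TTTCGCGC or TTTGCCGC), CHR elements (TTTGAA or TTCGAA) and the CCAAT box, all on either strand, so that ATTGG is a CCAAT box and TTCAAA a CHR read from the other strand.
Ube2c, chr2:164769779-164769927, plus strand: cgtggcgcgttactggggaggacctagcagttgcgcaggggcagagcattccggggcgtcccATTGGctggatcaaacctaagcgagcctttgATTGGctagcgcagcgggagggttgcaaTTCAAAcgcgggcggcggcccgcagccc
Top2a, chr11:99024190-99024339, minus strand: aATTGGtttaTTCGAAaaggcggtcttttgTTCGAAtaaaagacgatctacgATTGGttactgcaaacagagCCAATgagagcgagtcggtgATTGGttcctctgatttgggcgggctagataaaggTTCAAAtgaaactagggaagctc
Cdk1, chr10:69352913-69353062, minus strand: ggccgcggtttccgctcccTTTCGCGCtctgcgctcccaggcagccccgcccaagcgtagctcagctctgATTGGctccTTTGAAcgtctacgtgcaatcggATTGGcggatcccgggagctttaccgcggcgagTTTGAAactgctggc
Aurka, chr2:172370571-172370710, minus strand: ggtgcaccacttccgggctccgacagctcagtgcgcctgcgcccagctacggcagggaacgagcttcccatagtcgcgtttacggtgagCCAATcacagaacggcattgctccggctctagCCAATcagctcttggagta
Tyms, chr5:30073626-30073775, minus strand: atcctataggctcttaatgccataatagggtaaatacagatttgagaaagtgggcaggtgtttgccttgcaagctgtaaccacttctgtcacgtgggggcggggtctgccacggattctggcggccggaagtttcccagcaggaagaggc
Birc5, chr11:117849087-117849236, plus strand: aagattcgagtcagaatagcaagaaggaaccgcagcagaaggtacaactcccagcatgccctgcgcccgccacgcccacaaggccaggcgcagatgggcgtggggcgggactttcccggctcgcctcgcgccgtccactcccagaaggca
The Ube2c stretch held 2 CCAAT boxes followed by a CHR element 29 to 24 bases before the start. Top2a held 4 CCAAT boxes and 3 CHR matches, the last of them 23 to 18 bases before the start. Cdk1 held an E2F element 131 to 124 bases before the start, 2 CCAAT boxes and 2 CHR elements. Aurka held 2 CCAAT boxes in the printed stretch, and its window of 300 bases, described next, also held a CHR outside that stretch. No match to any of these letters lay in the stretches of Tyms and Birc5. The last 26 bases of the Cdk1 stretch and the last 30 of that of Ube2c are exon in the GENCODE vM21 annotation, and 30 bases of the Aurka stretch are exon of its neighbor Cstf1.

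Across the 34 genes with a window of 300 bases in the RefSeq table (250 before the start and 50 after it), 16 (47.1%) held a CHR element, and in all 16 the window also held a CCAAT box. Among all 27025 genes with a window, 21.7% held a CHR and 8.61% held both. CCAAT boxes were found in 26 of the 34 genes (76.5%) beside 41.1% of all genes, and E2F elements in 6 (17.6%) beside 2.6%. The elements were spread unevenly over the roles. A CHR lay in 4 of 4 checkpoint and anaphase genes, 4 of 5 mitotic cyclins and kinases and 5 of 8 chromosome and spindle genes, but in 0 of 4 genes of nucleotide synthesis, and E2F elements lay in 5 of 8 genes of licensing and replication. No window was found for 9 genes: Ccnd1, Ccnd2, Ccne2, Mcm4, Ccna2, Aurkb, Foxm1, Kif20a and Tpx2. A match is a string of letters and not evidence of a bound factor.

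The depth of the libraries limits what can be seen at 6 h. Library totals at 6 h ranged from 13518 to 5244763 counts. They were 2005239 to 5961933 at 12 h, while the range for 24 h was 1608018 to 7552509. H-CM replicate 4 of 6 h, with the lowest total, had only 60 counts on the 43 genes together and 0 counts on 27 of them, where the limit set by 3 counts is 110.5 CPM (counts scaled to one library total). At 24 h every gene had counts in every library, and the same limit lay between 0.328 and 1.49 CPM. These limits cover counting error only. A single entry of the table, Yam1, took up to 48.6% of the counts of a library. At 24 h its share was 12.7% to 18.5% except in unstimulated replicate 1 (30.7%) and TME-CM replicate 2 (35.1%), and results at 24 h are also given without these libraries. Nothing in the labels says whether the libraries of a group came from separate cultures, so p-values measure the spread between these libraries.

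The cultures were checked for other cell types with marker lists. At 24 h the summed level of 12 glial markers was 438 to 594 CPM over all 12 libraries, with no marker at 0 in any group, while 8 epithelial markers summed to 1.68 to 7.04 CPM, with Krt8 and Vil1 at 0 in every library. The sum of 8 smooth muscle markers was 6861 to 7884 CPM without stimulation, 3184 to 3905 with H-CM and 1648 to 2393 with TME-CM, and that of 5 endothelial markers was 41.4 to 63.1, 31.9 to 67.8 and 11.7 to 27.3 CPM in the same order. Most of the endothelial sum was Kdr, with means of 38.0, 40.0 and 12.6 CPM. Pecam1 was at 2.83, 4.81 and 3.40 CPM and Emcn at 8.03, 3.96 and 2.05, while Cdh5 and Tek were lower still. Fibroblast (5046 to 8036 CPM), neuron (351 to 575 CPM) and macrophage (45.7 to 316 CPM) sums were present in every group. Against H-CM at 24 h, 5 of 7 smooth muscle and 1 of 3 endothelial markers tested were lower in TME-CM EGCs and 4 of 7 fibroblast markers were higher. Of all genes tested, 2.65% were called lower and 2.75% higher. The part of these cells in the values below was not tested. In bulk RNA, a larger or smaller share of dividing cells and more or less RNA of these genes per cell cannot be told apart.

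The mean log2 CPM of the 43 genes in a library was used as a score, as a description without a test. At 24 h it was 5.54, 5.17, 5.46 and 5.80 in TME-CM replicates 1 to 4, 5.33, 5.05, 5.01 and 5.15 in H-CM and 5.23, 5.12, 5.20 and 5.32 in unstimulated EGCs. The group means and SD (n = 4) were 5.49 ± 0.26, 5.13 ± 0.14 and 5.22 ± 0.08. TME-CM EGCs had the highest mean, but TME-CM replicate 2 lay below the highest library of each of the other groups, so that the groups overlapped. At 12 h the means were 4.43 ± 0.22, 4.47 ± 0.14 and 4.46 ± 0.19, within the spread of their libraries. In each stimulation, every library of 24 h lay above every library of 12 h.

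**Figure D1:**
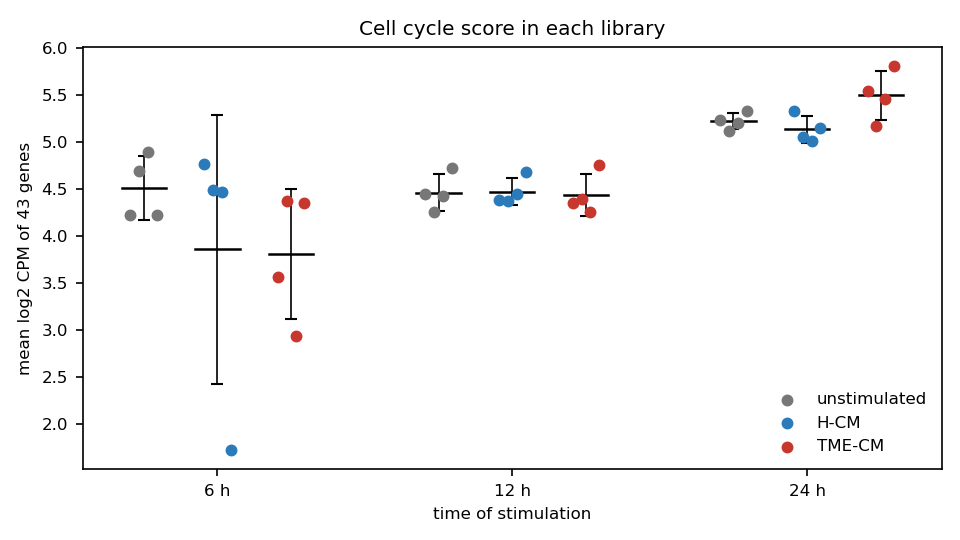
Mean log2 CPM of the 43 cell cycle genes (y axis) in each of the 36 libraries (points) by time and stimulation (x axis, colors), with the group mean (line) and SD (error bar, n = 4). All libraries of 24 h lie above those of 12 h of the same stimulation, and H-CM replicate 4 of 6 h, at 1.72, lies far below the rest of its group.

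At 24 h, TME-CM EGCs differed from H-CM EGCs in 5 of the 43 genes: Ube2c, Tyms and Birc5 were higher and the D-type cyclins Ccnd1 and Ccnd2 were lower (edgeR's quasi-likelihood test, Benjamini-Hochberg adjusted p under 0.05 over 12713 genes). Of all genes tested, 2.75% were called higher and 2.65% lower. The 43 genes leaned upward, with a positive log2 fold change in 39 of 43 and a median of 0.43, where 50.6% of all genes were positive with a median of 0.0049. Counted at an unadjusted p under 0.05, 17 of the 43 were higher, where 8.09% of all genes were, and 2 were lower, where 7.92% were. Without an overlap between the 4 TME-CM and the 4 H-CM libraries, 6 genes were higher, where 5.59% of all genes were, and 2 were lower, where 5.57% of all genes were. The count of lower genes without overlap lies near its share. DESeq2's Wald test called 6 higher and 2 lower. Here and below, shares of all genes called are given for the main edgeR fits only.

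Ccnd1 and Ccnd2 were the 2 genes called lower. Ccnd1 (cyclin D1; chr7:144929931-144939925, minus strand, mm10) was at 365, 372, 367 and 399 CPM in TME-CM replicates 1 to 4, 475, 506, 482 and 548 with H-CM and 535, 581, 705 and 675 in unstimulated EGCs. All TME-CM libraries lay below all libraries of the other groups, and H-CM EGCs lay between, overlapping with unstimulated ones. The log2 fold change (± SE) was -0.42 ± 0.11 against H-CM, 1.34-fold lower (adjusted p = 0.0306), and -0.74 ± 0.12 against unstimulated EGCs, 1.66-fold lower (adjusted p = 0.000105). For H-CM against unstimulated it was -0.31 ± 0.11 (adjusted p = 0.238).

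Ccnd2 (cyclin D2; chr6:127125162-127152193, minus strand), which drives G1 in neural and other progenitors, took the same order. Its values were 1131, 1211, 1281 and 1323 CPM with TME-CM, 1501, 1834, 1731 and 1688 with H-CM and 1739, 2348, 2444 and 2386 in unstimulated replicates 1 to 4. TME-CM libraries were again the lowest without overlap, and unstimulated replicate 1 fell within the range of H-CM. Ccnd2 was 1.37-fold lower in TME-CM than in H-CM EGCs (log2 -0.45 ± 0.12, adjusted p = 0.0284) and 1.81-fold lower than in unstimulated EGCs (log2 -0.85 ± 0.12, adjusted p = 3.64e-05). The difference of H-CM from unstimulated EGCs was -0.40 ± 0.12 (adjusted p = 0.108). Ccnd3, the third D-type cyclin, was at 216, 239, 224 and 225 CPM with TME-CM, 220.4, 262, 257 and 241 with H-CM and 239, 227, 259 and 260.1 in unstimulated EGCs. These values overlapped, with log2 differences of -0.12 ± 0.11 (95% interval -0.34 to 0.09) and -0.13 ± 0.11 (-0.34 to 0.08) that did not pass the test.

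In the annotation, 16 of the 43 genes share exon bases with another gene, 10 of them over 5% of their exon bases. Of those of Ccnd1, 23.4% are shared with the opposite-strand gene Lto1, listed in the table as Oraov1 with 27 to 127 counts per library at 24 h. For Ccnd2 the share is 7.87%, with antisense transcripts of which 9330179D12Rik had 0 to 3 counts. The strand setting of the counting was not found in the sources used here, so reads there cannot be assigned by strand. The calls of Ccnd1 and Ccnd2 against H-CM were lost on leaving out any of H-CM replicates 2, 3 and 4 or TME-CM replicates 1 and 3, when their log2 fold changes lay between -0.47 and -0.37. Against unstimulated EGCs both were called without each library in turn. In the model of all 36 libraries, the call of Ccnd1 against unstimulated EGCs was lost and that of Ccnd2 remained.

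**Figure D2:**
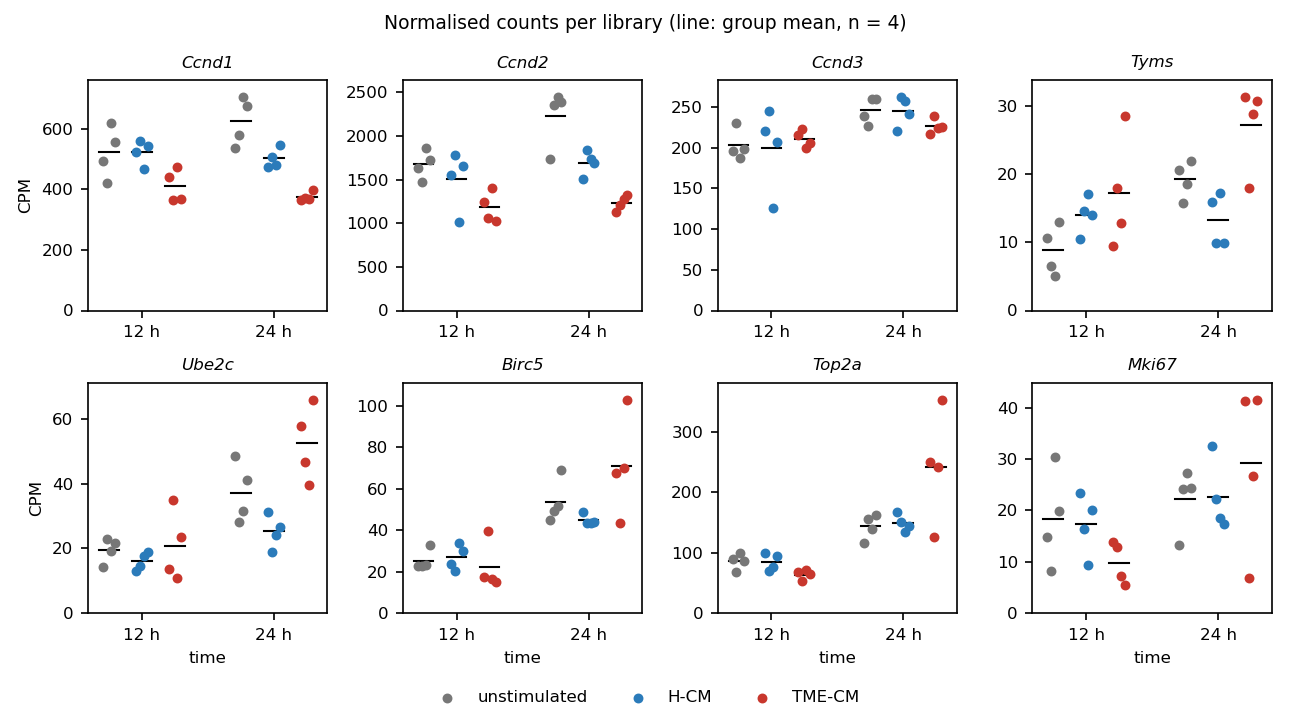
Normalized counts (CPM, y axes from 0) of 8 cell cycle genes at 12 h and 24 h (x axes) in each library (points, colored by stimulation), with group means as lines (n = 4). At 24 h, Ccnd1 and Ccnd2 lie lowest in the 4 TME-CM libraries, Ube2c and Tyms lie above H-CM, and TME-CM replicate 2 lies at the bottom of its group for Birc5, Top2a and Mki67.

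Ube2c (chr2:164769898-164778822, plus strand), a ubiquitin-conjugating enzyme that works with the anaphase-promoting complex, showed the smallest adjusted p of the 43 genes against H-CM. It was at 57.8, 46.8, 39.6 and 65.9 CPM with TME-CM, 31.1, 18.96, 24.1 and 26.7 with H-CM and 48.4, 28.03, 31.4 and 41.03 in unstimulated replicates 1 to 4. TME-CM libraries lay above all H-CM libraries and overlapped with unstimulated ones. The fold against H-CM was 2.1 (log2 1.07 ± 0.20, adjusted p = 0.00187). Against unstimulated EGCs the log2 difference was 0.50 ± 0.20 (adjusted p = 0.132), and H-CM EGCs differed from unstimulated ones by -0.56 ± 0.20 (adjusted p = 0.228). On the opposite strand, Tnnc2 shares 22.8% of the exon bases of Ube2c, and had 0 counts in all libraries of 24 h.

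The other 3 checkpoint and anaphase genes also lay on the higher side of H-CM, and none of them passed the threshold.

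Tyms (thymidylate synthase, which makes the thymidine nucleotide for DNA; chr5:30058202-30073617, minus strand) was at 31.3, 18.03, 28.8 and 30.7 CPM with TME-CM, 15.96, 9.89, 17.3 and 9.9 with H-CM and 20.6, 15.7, 18.6 and 21.997 in unstimulated EGCs. All TME-CM libraries were above all H-CM libraries, and TME-CM replicate 2 lay within the unstimulated range. Tyms was 2.02-fold higher in TME-CM than in H-CM EGCs (log2 1.02 ± 0.22, adjusted p = 0.00657). The values against unstimulated EGCs were 0.52 ± 0.22 (adjusted p = 0.173), and for H-CM against unstimulated -0.50 ± 0.22 (adjusted p = 0.412). H-CM EGCs thus had the lowest mean of Tyms and Ube2c, at 13.3 ± 3.91 and 25.2 ± 5.08 CPM (SD, n = 4), without a call against unstimulated EGCs. Rrm2, the regulated subunit of ribonucleotide reductase, was at 47.7, 43.7, 40.6 and 70.8 CPM with TME-CM, 41.9, 29.2, 26.6 and 27.2 with H-CM and 53.7, 30.8, 29.9 and 35.6 in unstimulated EGCs. The ranges overlapped, and the log2 difference from H-CM was 0.70 ± 0.21 (adjusted p = 0.0625).

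Birc5 (survivin, a subunit of the chromosomal passenger complex; chr11:117849251-117855743, plus strand) was at 67.6, 43.3, 70.2 and 103 CPM with TME-CM, 48.7, 43.6, 43.7 and 44.1 with H-CM and 44.9, 49.2, 51.6 and 69.1 in unstimulated EGCs. Replicate 2 held the lowest value of the TME-CM libraries and lay below the H-CM range, while the other 3 lay above it. The fold was 1.59 (log2 0.67 ± 0.19, adjusted p = 0.0463). This call was lost on leaving out any library of these groups except TME-CM replicate 2. Ube2c and Tyms were called without each library in turn, and lost their calls only in the model of all 36 libraries.

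How many genes were called depended on single libraries. Without TME-CM replicate 2, with its high Yam1 share, 10 genes were called against H-CM (8 higher, 2 lower), and without TME-CM replicate 4, which had the highest score, 4 were (2 higher, 2 lower), when the median log2 fold change of the 43 genes went from 0.43 to 0.24. Without both libraries of 24 h with over 25% Yam1, 12 genes were called against H-CM (10 higher, 2 lower). Leaving out H-CM replicate 1 gave 8 calls, and leaving out H-CM replicate 2, 3 or 4 or TME-CM replicate 1 gave 2 each, Ube2c and Tyms. Leaving out TME-CM replicate 3 gave 3, all higher. In the model of all 36 libraries, whose spread includes that of 6 h, 0 were called. The share of all genes called is not given for these settings, so the counts show only how calls moved.

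**Figure D3:**
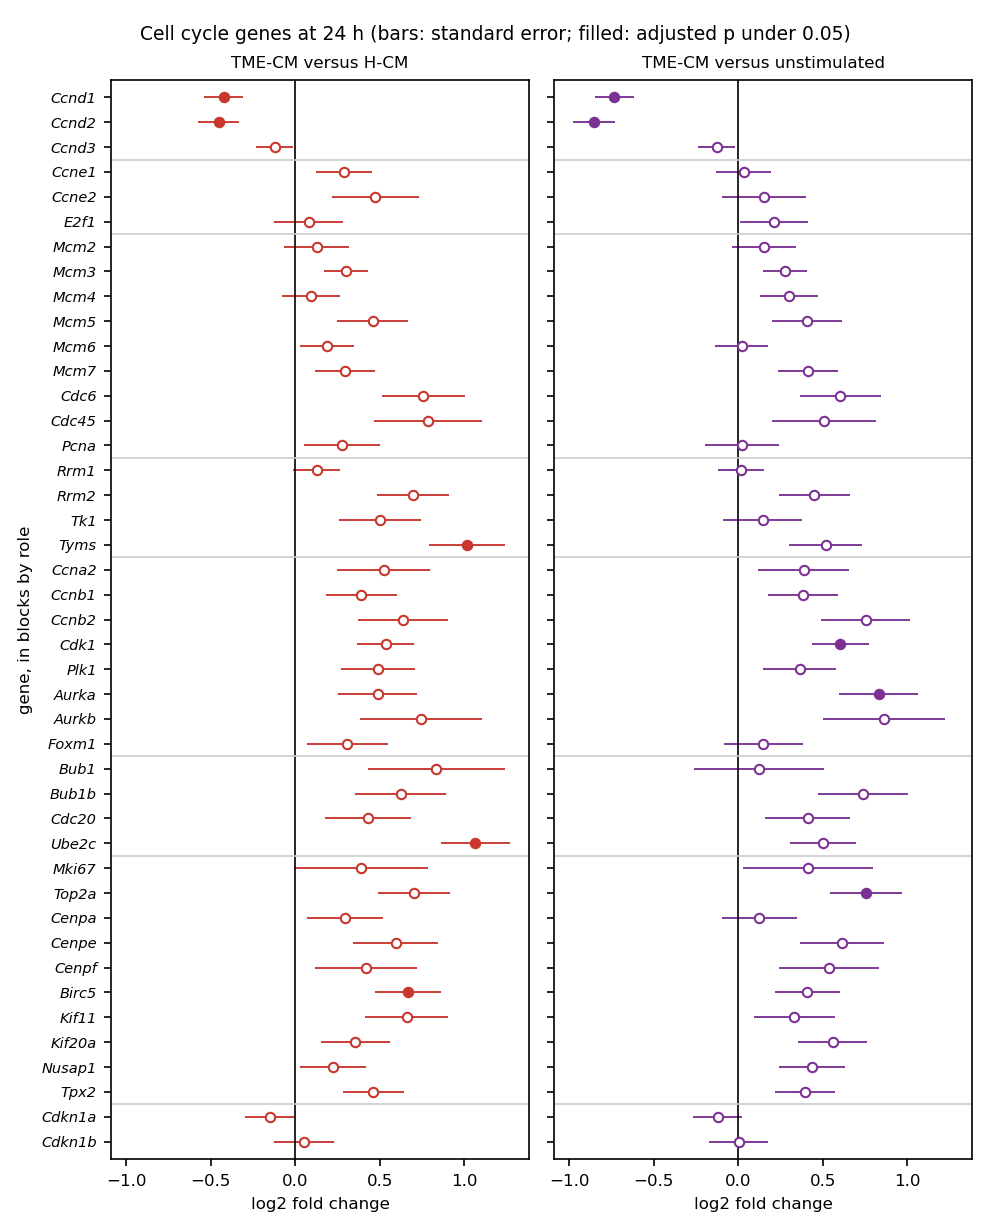
Log2 fold change (x axes) of each of the 43 genes (y axis, in blocks by role) at 24 h for TME-CM against H-CM (left) and against unstimulated EGCs (right), both with the same TME-CM libraries. Bars are standard errors and filled points have an adjusted p under 0.05. Ccnd1 and Ccnd2 lie on the lower side in both panels, most other genes on the higher side.

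Proliferation is often read from Mki67, the antigen of the Ki-67 antibody. Mki67 was at 41.4, 6.9, 26.8 and 41.6 CPM with TME-CM, 32.5, 22.2, 18.5 and 17.3 with H-CM and 13.3, 24.2, 27.2 and 24.3 in unstimulated replicates 1 to 4. TME-CM libraries spanned the whole range of the experiment at 24 h, with replicate 2 the lowest of all 12 and replicates 1 and 4 the highest. Its log2 difference from H-CM was 0.39 ± 0.39 (95% interval -0.38 to 1.16, adjusted p = 0.72).

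Top2a, the topoisomerase that untangles replicated chromosomes (chr11:98992943-99024189, minus strand), was at 249.8, 125, 242 and 353 CPM with TME-CM, 167, 151, 135 and 145 with H-CM and 116, 155, 140.0 and 163 in unstimulated EGCs. Again 3 TME-CM libraries lay above the rest and replicate 2 among the lowest. The log2 difference was 0.70 ± 0.21 from H-CM (adjusted p = 0.0717) and 0.76 ± 0.21 from unstimulated EGCs (adjusted p = 0.0302). All 10 genes of the chromosomes, kinetochore and spindle had positive log2 differences from H-CM, from 0.22 to 0.70, with 1 call, Birc5.

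Of the mitotic cyclins and kinases, Cdk1, the kinase that drives entry into mitosis (chr10:69335146-69352938, minus strand), was at 106, 85.5, 100.1 and 144 CPM with TME-CM, 92.7, 71.6, 68.7 and 67.3 with H-CM and 62.2, 61.4, 70.2 and 92.6 in unstimulated EGCs. Only TME-CM replicate 2 fell within the range of the other groups. The log2 difference was 0.54 ± 0.17 from H-CM (adjusted p = 0.07) and 0.60 ± 0.17 from unstimulated EGCs (adjusted p = 0.0211). Its partner Ccnb1 (cyclin B1) was at 18.9, 15.3, 18.97 and 26.5 CPM with TME-CM, 18.7, 13.9, 14.4 and 13.9 with H-CM and 14.8, 14.4, 13.4 and 18.8 in unstimulated EGCs, with a log2 difference from H-CM of 0.39 ± 0.21 (adjusted p = 0.385). Replicate 4 was the highest TME-CM library for both. Ccna2 (cyclin A2), which acts from S phase into G2, was at 19.5, 21.1, 24.5 and 42.6 CPM with TME-CM, 22.7, 17.99, 14.6 and 20.8 with H-CM and 29.6, 11.5, 22.6 and 19.6 in unstimulated EGCs (log2 0.52 ± 0.27, adjusted p = 0.375). Plk1, a kinase of mitotic entry and spindle assembly, was at 47.2, 30.3, 51.00 and 81.7 CPM with TME-CM, 40.1, 31.9, 36.3 and 44.1 with H-CM and 38.4, 37.3, 36.1 and 52.5 in unstimulated EGCs (log2 0.49 ± 0.22 against H-CM, adjusted p = 0.27). The groups overlapped for Ccna2, Ccnb1 and Plk1. Ccna2 shares 12.5% of its exon bases with the opposite-strand gene Exosc9, which had 55 to 390 counts per library at 24 h. How far reads of Exosc9 enter the values of Ccna2 was not tested. All 8 genes of this role were on the higher side of H-CM, from 0.31 to 0.75 on the log2 scale and without a call at the adjusted threshold.

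The E-type cyclins with Cdk2 start S phase, and E2f1 is a factor that switches them on. Ccne1 was at 46.9, 36.8, 38.2 and 45.5 CPM with TME-CM, 42.7, 30.3, 26.9 and 38.6 with H-CM and 46.4, 36.8, 39.8 and 41.4 in unstimulated EGCs. Ccne2 was at 41.4, 25.7, 39.4 and 20.3 CPM with TME-CM, 19.5, 25.3, 21.96 and 25.7 with H-CM and 14.8, 39.2, 27.6 and 32.01 in unstimulated EGCs. E2f1 was at 21.6, 34.5, 28.4 and 32.7 CPM with TME-CM, 39.3, 23.8, 23.5 and 22.8 with H-CM and 22.3, 21.8, 29.05 and 26.7 in unstimulated EGCs. All of these ranges overlapped. Ccne2 shares 17.4% of its exon bases with the opposite-strand gene Ints8, which had 13 to 135 counts per library at 24 h. The log2 differences from H-CM were 0.29 ± 0.17 for Ccne1, 0.48 ± 0.26 for Ccne2 and 0.08 ± 0.20 for E2f1, with adjusted p-values of 0.421, 0.39 and 0.915. The difference of E2f1 turned to -0.01 without TME-CM replicate 2.

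Licensing and replication genes load and fire the origins of replication. Mcm2 was at 34.3, 26.5, 35.8 and 31.2 CPM with TME-CM, 33.3, 28.8, 22.1 and 35.2 with H-CM and 20.8, 27.1, 29.05 and 37.7 in unstimulated EGCs. Mcm5 was at 23.9, 37.98, 29.9 and 28.5 CPM with TME-CM, 20.3, 23.02, 22.4 and 20.3 with H-CM and 33.4, 21.5, 16.1 and 19.8 in unstimulated EGCs. Both encode subunits of the replicative helicase, and the TME-CM libraries lay above all H-CM libraries for Mcm5 but not for Mcm2. Mcm6, another subunit, was at 41.3, 54.9, 48.7 and 63.8 CPM with TME-CM, 49.7, 38.4, 45.6 and 49.5 with H-CM and 58.2, 40.7, 52.7 and 53.4 in unstimulated EGCs. Pcna, the sliding clamp of the polymerases, was at 30.1, 24.9, 26.4 and 25.2 CPM with TME-CM, 28.3, 23.3, 15.5 and 21.3 with H-CM and 39.4, 23.1, 26.2 and 17.7 in unstimulated EGCs. The groups overlapped for both. The log2 differences from H-CM were 0.13 ± 0.19 for Mcm2, 0.46 ± 0.21 for Mcm5, 0.19 ± 0.16 for Mcm6 and 0.28 ± 0.23 for Pcna, and none passed the threshold (adjusted p from 0.275 to 0.835). All 9 genes of the role were on the higher side of H-CM, from 0.09 to 0.79, without a call. Cdc6, which loads the helicase, and Ccnb2 and Aurkb of mitosis, chosen here after their values were seen, were the other genes whose TME-CM and H-CM libraries did not overlap, with adjusted p-values of 0.0798, 0.22 and 0.319.

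The CDK inhibitors did not pass the test. Cdkn1a, a target of p53, was at 688, 587, 625 and 848 CPM with TME-CM, 859, 804, 623 and 757 with H-CM and 559.7, 856, 766 and 801 in unstimulated EGCs, with a log2 difference from H-CM of -0.15 ± 0.15 (95% interval -0.43 to 0.14, adjusted p = 0.704). Cdkn1b, which holds cells in G1, was at 65.3, 93.98, 69.97 and 51.8 CPM with TME-CM, 50.1, 75.2, 83.05 and 57.9 with H-CM and 68.2, 67.8, 79.4 and 62.4 in unstimulated EGCs, with a difference of 0.05 ± 0.18 (-0.29 to 0.40, adjusted p = 0.937). Its sign turned without TME-CM replicate 2 (-0.11).

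Against unstimulated EGCs at 24 h, 3 genes were higher in TME-CM EGCs, Cdk1, Aurka and Top2a, and 2 were lower, Ccnd1 and Ccnd2. Of all genes tested, 4.82% were called higher and 4.7% lower. The 3 and 2 calls among the 43 genes lie near these shares. This comparison shares its TME-CM libraries with that against H-CM. Aurka, the kinase of centrosome maturation (chr2:172356190-172370535, minus strand), was at 26.4, 16.9, 21.5 and 33.9 CPM with TME-CM, 26.1, 14.3, 16.8 and 12.9 with H-CM and 13.3, 13.1, 13.1 and 16.2 in unstimulated replicates 1 to 4. The TME-CM libraries lay above all unstimulated ones, and the H-CM libraries overlapped with both. The fold was 1.78 (log2 0.83 ± 0.23, adjusted p = 0.0238). The folds of Cdk1 and Top2a were 1.52 and 1.69.

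Of the 43 genes, 39 had a positive log2 difference from unstimulated EGCs, with a median of 0.39. Without overlap between libraries, 3 genes were higher, where 6.74% of all genes were, and 2 were lower, where 6.32% were. Both counts lie near these shares. DESeq2's Wald test also called 3 higher and 2 lower. The calls of Cdk1, Aurka and Top2a were lost without unstimulated replicate 2, unstimulated replicate 3 or TME-CM replicate 4, when 2 calls were left each time, Ccnd1 and Ccnd2. Top2a also lost its call without unstimulated replicate 1 and TME-CM replicates 1 and 3, and Aurka without TME-CM replicate 1, when 3 genes were called. Without TME-CM replicate 2, 11 genes were called, and without unstimulated replicate 1, 8. Without both libraries of high Yam1 share, 15 were called (13 higher, 2 lower).

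Between H-CM and unstimulated EGCs at 24 h, 0 of the 43 genes were called by edgeR, where 2.03% of all genes were called. At an unadjusted p under 0.05, 4 genes were lower and 0 higher (10.6% of all genes in either direction), namely Ccnd1, Ccnd2, Ube2c and Tyms, and DESeq2 called 1 lower. The count of 4 at the unadjusted threshold lies near the share of all genes. The median log2 difference of the 43 genes was -0.05. Without unstimulated replicate 1, edgeR called 1 gene.

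At 12 h, 0 of the 43 genes were called in any comparison of the stimulations by edgeR, and 0 by DESeq2. Of all genes tested, 1.89% were called for TME-CM against H-CM, 4.41% for TME-CM against unstimulated and 0.403% for H-CM against unstimulated EGCs. At an unadjusted p under 0.05, the numbers of the 43 genes were 2, 6 and 0 in the same order, where 10.6%, 12.3% and 5.66% of all genes passed. The median log2 differences of the 43 genes were -0.02, 0.01 and -0.03, in contrast to the upward lean of 24 h. Ccnd1 and Ccnd2 already lay on the lower side in TME-CM EGCs. Ccnd1 was at 439.7, 363, 472 and 368 CPM with TME-CM, 523, 558, 468 and 544 with H-CM and 495, 419.5, 619 and 557 in unstimulated replicates 1 to 4. Ccnd2 was at 1239.8, 1057, 1401 and 1024 CPM with TME-CM, 1555, 1781, 1017 and 1657 with H-CM and 1633, 1471, 1857 and 1728 in unstimulated EGCs. For Ccnd2 the TME-CM libraries lay below all unstimulated ones. The log2 differences of TME-CM from unstimulated EGCs were -0.35 ± 0.16 for Ccnd1 and -0.51 ± 0.17 for Ccnd2 (adjusted p = 0.365 and 0.134).

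Top2a and Mki67 lay on the lower side of unstimulated EGCs at 12 h, without a call. Top2a was at 67.8, 52.8, 70.8 and 63.99 CPM with TME-CM, 99.5, 69.8, 76.6 and 93.8 with H-CM and 90.1, 68.4, 99.3 and 86.4 in unstimulated EGCs, a log2 difference from unstimulated of -0.44 ± 0.19 (adjusted p = 0.315) and from H-CM of -0.40 ± 0.19 (adjusted p = 0.447). The TME-CM libraries overlapped with those of each of the other groups. Mki67 was at 13.9, 12.8, 7.3 and 5.4 CPM with TME-CM, 23.4, 16.4, 9.35 and 20.2 with H-CM and 14.8, 8.19, 30.4 and 19.98 in unstimulated EGCs (log2 -0.92 ± 0.41 against unstimulated, adjusted p = 0.331). H-CM replicate 3 of 12 h stood apart in its group, with the highest mitochondrial share of that time (6.88% of counts) and the highest Cdkn1b (228 CPM) and Cdk1 (116 CPM). Without it, 0 of the 43 genes were called for TME-CM against H-CM, as with it.

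At 6 h, 39 of the 43 genes passed the filter on low counts, and Cdc45, Aurkb, Foxm1 and Bub1 were not tested. None of the 39 was called by edgeR or DESeq2 in TME-CM against H-CM, TME-CM against unstimulated or H-CM against unstimulated EGCs, and DESeq2 gave no adjusted p for 14 of them for TME-CM against H-CM. Of all genes tested, 0.0972%, 0.454% and 0% were called. At an unadjusted p under 0.05, 4, 3 and 0 of the 39 passed, where 6.07%, 6.19% and 0.627% of all genes did. The spread between replicates, as edgeR's common dispersion, fell with time, from 0.572 (6 h) through 0.122 (12 h) to 0.0455 (24 h). The scores at 6 h were 3.56, 4.37, 2.93 and 4.35 in TME-CM, 4.76, 4.49, 4.46 and 1.72 in H-CM and 4.22, 4.69, 4.89 and 4.22 in unstimulated replicates 1 to 4. When all 36 libraries were fitted together, 3 genes were called for TME-CM against H-CM at 6 h and 4 for TME-CM against unstimulated EGCs. The share of all genes called in that model is not given.

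From 12 h to 24 h, 14 of the 43 genes rose in TME-CM EGCs and 0 fell, where 0.504% of all 13105 genes tested were called higher and 0.122% lower. The calls fell on 7 of 10 chromosome, kinetochore and spindle genes, 2 of 8 mitotic cyclins and kinases, 2 of 4 checkpoint and anaphase genes, 1 of 4 of nucleotide synthesis, 1 of 9 of licensing and replication, and 1 of 3 of the E-type cyclins and E2f1. None of the D-type cyclins or CDK inhibitors was called. Of the 43 genes, 41 had a positive log2 fold change, with a median of 1.17, where 49.2% of all genes were positive. At an unadjusted p under 0.05, 33 of the 43 were higher, where 4.65% of all genes were. In 24 genes every library of 24 h lay above every library of 12 h, where 3.3% of all genes did. DESeq2 called 19.

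The genes with the smallest adjusted p were Top2a, Nusap1, a spindle assembly protein, and Birc5. Top2a went from 67.8, 52.8, 70.8 and 63.99 CPM at 12 h to 249.8, 125, 242 and 353 at 24 h, 3.82-fold higher (log2 1.93 ± 0.21, adjusted p = 1.63e-06). Nusap1 went from 12.2, 14.4, 14.8 and 13.6 to 55.97, 24.2, 42.2 and 50.3 CPM, 3.18-fold higher (log2 1.67 ± 0.24, adjusted p = 0.0002). Birc5 went from 17.6, 39.6, 16.4 and 14.9 to 67.6, 43.3, 70.2 and 103 CPM, 3.33-fold higher (log2 1.73 ± 0.26, adjusted p = 0.000288). The times did not overlap for any of these 3 genes. In CPM, the libraries of 24 h, with their higher values, were spread more widely than those of 12 h. Ube2c rose from 13.5, 34.8, 10.95 and 23.4 to 57.8, 46.8, 39.6 and 65.9 CPM (log2 1.40 ± 0.27, adjusted p = 0.00518) and Cdk1 from 34.1, 38.00, 39.3 and 50.4 to 106, 85.5, 100.1 and 144 CPM (log2 1.44 ± 0.27, adjusted p = 0.00417). Ccne1 was the only gene of the E-type cyclins and E2f1 to be called (log2 0.94 ± 0.21, adjusted p = 0.0246).

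In unstimulated and H-CM EGCs the same genes also leaned upward from 12 h to 24 h, without calls. Of the 43 genes, 0 were called in unstimulated EGCs (0.0153% of all genes) and 0 in H-CM EGCs (0.00763%). At an unadjusted p under 0.05, 25 and 21 of the 43 passed, where 5.3% and 6.23% of all genes did, and DESeq2 called 3 and 1. A positive log2 fold change was found in 41 genes in unstimulated and 38 in H-CM EGCs, with medians of 0.63 and 0.68. Every library of 24 h lay above every library of 12 h in 18 genes in unstimulated (2.68% of all genes) and 16 in H-CM EGCs (2.44%). Top2a differed by 0.73 ± 0.20 on the log2 scale in unstimulated and 0.81 ± 0.20 in H-CM EGCs (adjusted p = 0.492 and 0.253).

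Whether the change with time differed between the stimulations was tested directly, as the change of the TME-CM difference from 12 h to 24 h. Against H-CM, 0 of the 43 genes were called by edgeR or DESeq2, as were 0% of all genes, and 6 had an unadjusted p under 0.05 (3.33% of all genes), all positive. Against unstimulated EGCs, 0 were called by edgeR or DESeq2 (0.00763% of all genes) and 10 had an unadjusted p under 0.05 (3.22%), all positive. Top2a had the smallest p, with a change of 1.12 ± 0.29 against H-CM (unadjusted p = 0.000438, adjusted p = 1) and 1.202 ± 0.29 against unstimulated EGCs (unadjusted p = 0.000198, adjusted p = 0.27). The larger rise in TME-CM EGCs is thus not shown to differ from that of the other groups. Without TME-CM replicate 2 of 24 h, 1 gene was called against unstimulated EGCs.

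The share of Yam1 also moved between the times. In unstimulated EGCs the median was 31.04% for the earlier time and 17.3% for the later, with 23.6% and 16.2% in H-CM EGCs, and 28.1% and 14.97% in TME-CM EGCs. With this share as a covariate, chosen after the data were seen, 12 of the 43 genes were called for 24 h against 12 h in TME-CM EGCs, and in the model of all 36 libraries 1 was, Top2a.

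**Figure D4:**
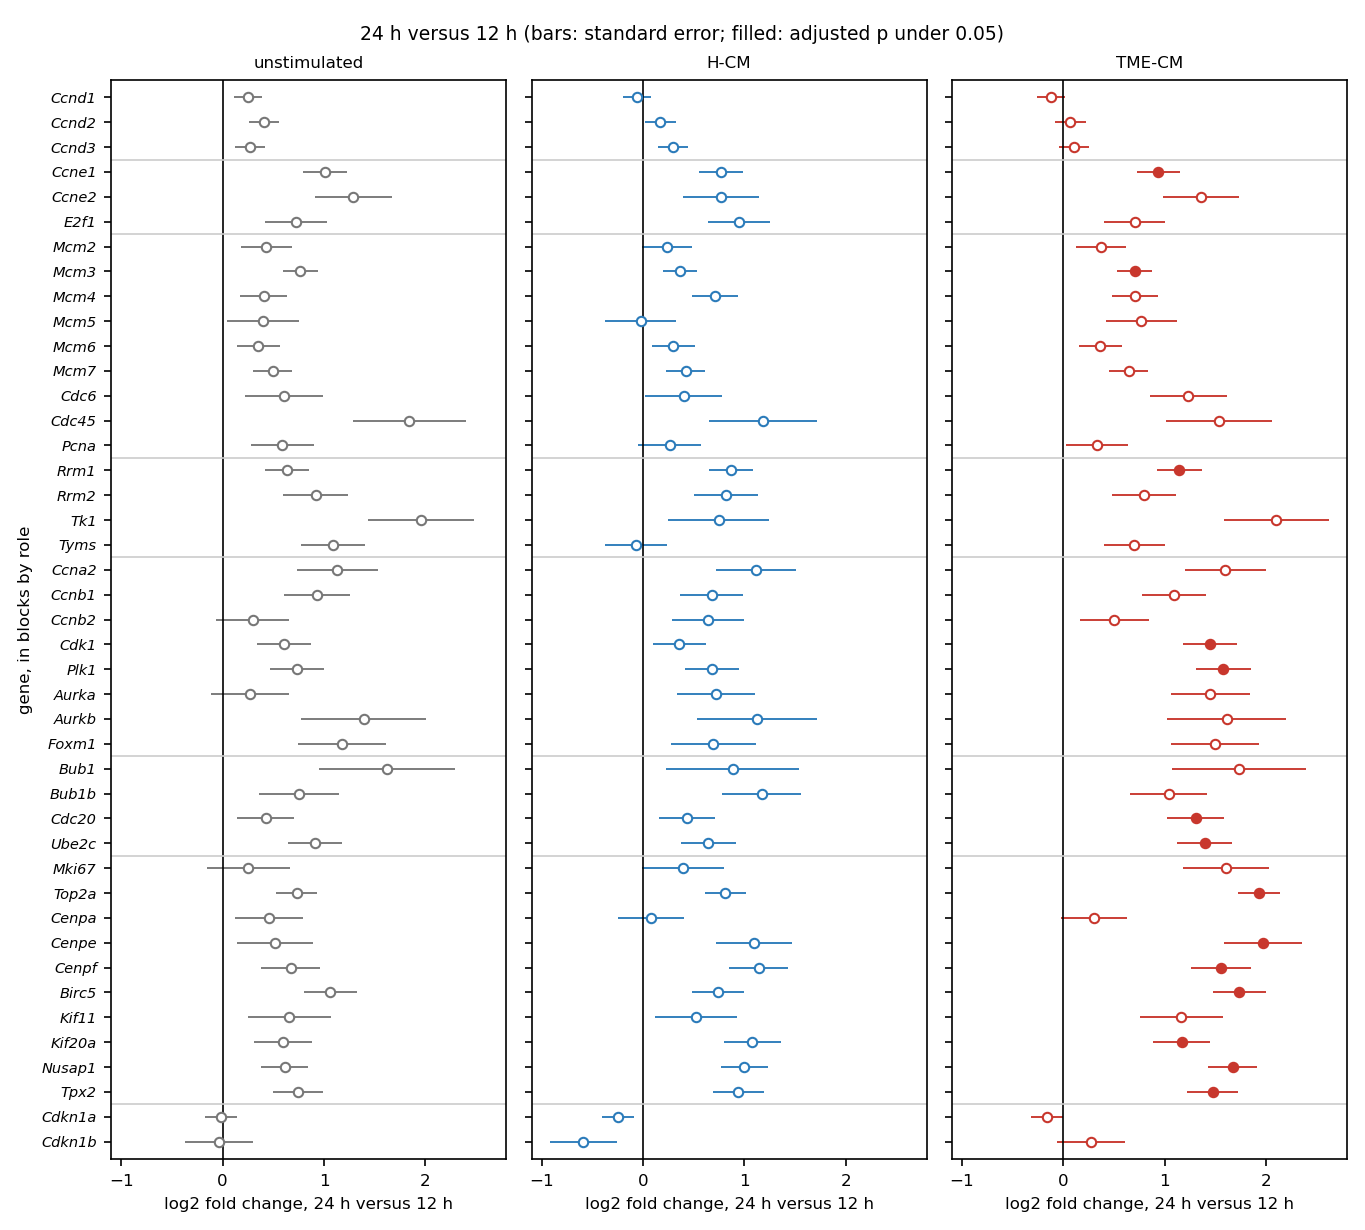
Log2 fold change of 24 h against 12 h (x axes) for each of the 43 genes (y axis, in blocks by role) in unstimulated, H-CM and TME-CM EGCs. Bars are standard errors and filled points have an adjusted p under 0.05, with 14 filled points in TME-CM and 0 in the other panels, where 41 and 38 genes also lie on the higher side.

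Further genes of the same processes, outside the 43, were counted from lists. Of 31 further S-phase genes tested at 24 h, 3 were higher in TME-CM than in H-CM EGCs (2.75% of all genes) and 27 had a positive log2 difference (50.6% of all genes). They were Clspn (claspin, which signals from stalled replication forks; log2 0.78 ± 0.18, adjusted p = 0.00913), Dut (dUTPase; 0.58 ± 0.15, adjusted p = 0.0173) and Fen1 (the flap endonuclease; 0.68 ± 0.20, adjusted p = 0.0418). Of 46 further mitosis genes tested, 3 were higher and 43 had a positive difference, to be read against the same shares. These were Cdca2 (log2 0.98 ± 0.27, adjusted p = 0.0321), Ckap2l (0.72 ± 0.20, adjusted p = 0.0377) and Ttk, the Mps1 kinase of the spindle checkpoint (0.90 ± 0.25, adjusted p = 0.0328). Of 24 genes of E2F, RB and G1 control, 15 had a positive difference.

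Among 22 other CDK inhibitors and p53 targets, 2 were lower in TME-CM than in H-CM EGCs at 24 h, where 2.65% of all genes were. Cdkn1c, the inhibitor also known as p57, was at 69.2 ± 18.9 CPM with TME-CM and 157 ± 44.3 with H-CM (SD, n = 4; log2 -1.201 ± 0.20, adjusted p = 0.000865). Trp53inp1, a p53-induced gene, was at 22.9 ± 7.78 and 47.6 ± 14.1 CPM (log2 -1.02 ± 0.23, adjusted p = 0.00955). Against unstimulated EGCs, 4 of the 22 were lower (4.7% of all genes), named after their values were seen: Cdkn1c (log2 -1.54 ± 0.20), Cdkn2a, whose products include the inhibitor p16 (-0.86 ± 0.16), Gadd45g (-0.55 ± 0.12) and Phlda3 (-0.56 ± 0.12), with adjusted p-values of 2.52e-05, 0.00057, 0.00286 and 0.00307. In the same comparison 7 of 46 further mitosis genes were higher (4.82% of all genes), and E2f6, a repressor of the E2F family, also named after its value was seen, was lower (log2 -0.87 ± 0.21, adjusted p = 0.0073). Gadd45g was lower in H-CM EGCs as well. Its log2 difference of H-CM from unstimulated EGCs was -0.61 ± 0.12 at 24 h (edgeR, adjusted p = 0.0057), where 2.03% of all genes were called. At 12 h it was -0.96 ± 0.19 (adjusted p = 0.0235), where 0.403% were. From 12 h to 24 h in TME-CM EGCs, 21 of 46 further mitosis genes and 4 of 31 further S-phase genes were higher, where 0.504% of all genes were. A rise over the same time was also called in H-CM EGCs for Hmgb2, a further mitosis gene named after its value was seen. Its log2 fold change there was 1.34 ± 0.24 (edgeR, adjusted p = 0.0443), and it was the only gene called of all genes tested (0.00763%). Hmgb2 was among the genes called in TME-CM EGCs as well.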

How the data were processed

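The 36 libraries (4 for each stimulation and time) were 3′ mRNA libraries. The authors deposited raw counts of reads per gene, made by trimming with fastq-mcf, alignment with HISAT2 to mm10, discarding reads with several matches and counting with HTSeq. The submitters' processing notes also name FastQC 0.11.7 and SAMtools 1.5. The annotation, the strand setting and any use of molecular identifiers were not given in the sources used here. A 3′ read does not show isoforms, and genes that share exon bases cannot be separated where strand was not used.

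Counts were analysed with edgeR 4.0.16 in R 4.3.3 (filterByExpr with a minimum count of 10, TMM factors, robust quasi-likelihood test, adjusted over all genes tested, threshold 0.05). The 3 stimulations were compared in 1 fit of 12 libraries per time, and 12 h with 24 h in 1 fit of 24 libraries, with interaction terms. CPM were scaled once over all 36 libraries, and the score is the mean log2 CPM of the 43 genes with a prior count of 2. DESeq2 1.42.0, other scalings and filters, the replicate block and leaving out each library were alternatives. The test scripts were checked on simulated data. Groups came from the labels. The 43 genes, the wider lists and the marker lists were chosen with earlier results of these data known. Values per library were given for a list of well-known members and for those called in TME-CM against H-CM. In other comparisons the 3 called members with the smallest adjusted p per direction were named, and of the wider lists up to 4 called genes per direction in TME-CM against H-CM. Same-numbered libraries deviated together with correlations of -0.188 to 0.253, so the numbers were not taken to pair them. In single comparisons, 0 to 3 of the 4 libraries matched their own number best, with 3 for H-CM against unstimulated EGCs at 24 h. Promoters came from RefSeq (GRCm38.p6) and exon overlaps from GENCODE vM21.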

Additional observations from a re-analysis of the deposited data

Results flagged for a closer look

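Single libraries that stood apart from the other 3 of their group were looked for with Dixon's test at the 95% level in 141 groups of values, and 14 were found. Chance gives about 1 in 20 for independent groups. These groups share libraries, so the number found is not a test of an excess. In H-CM replicate 4 of 6 h the score was 1.72, the lowest of its group, in the library with 13518 counts. In H-CM replicate 3 of 12 h, Cdk1 (116 CPM), Plk1 (39.2 CPM) and Cdkn1b (228 CPM) were the highest of their group. In H-CM replicate 1 of 24 h, Cdk1 (92.8 CPM), Ccnb1 (18.8 CPM), E2f1 (39.3 CPM), Rrm2 (41.9 CPM) and Birc5 (48.7 CPM) were the highest.

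Of the other groups, Birc5 was high in unstimulated replicate 4 of 12 h (32.7 CPM) and in TME-CM replicate 2 of 12 h (39.6 CPM), and Pcna in TME-CM replicate 4 of 12 h (42.7 CPM). Ccnd2 was low in unstimulated replicate 1 of 24 h (1739 CPM), and Plk1 was high in unstimulated replicate 4 of 24 h (52.5 CPM).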

How the results depend on the processing

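For TME-CM against H-CM at 24 h, where 5 genes were called, DESeq2 called 8, no filter on low counts 8, Yam1 share as a covariate 9, both libraries over 25% Yam1 left out 12, and 1 model of all 36 libraries 0. Leaving out single libraries gave 2 to 10. For TME-CM against unstimulated at 24 h (5 called), no filter gave 8, the high-Yam1 libraries left out 15, and all 36 libraries 1, with 2 to 11 on leaving out single libraries. For H-CM against unstimulated at 24 h (0 called), DESeq2 gave 1, the Yam1 covariate 2, the high-Yam1 libraries left out 2, and single libraries left out 0 to 1. For 24 h against 12 h, DESeq2 gave 3 and no filter 5 in unstimulated EGCs, and 1 and 6 in H-CM EGCs, where 0 were called. In TME-CM EGCs (14 called) all 36 libraries gave 1 and single libraries left out 10 to 16. At 12 h, no filter gave 1 for TME-CM against H-CM, and a fit of only the groups compared gave 1 for TME-CM against unstimulated. At 6 h, all 36 libraries gave 3 and 4 in these comparisons. Of the interactions, that against H-CM had 1 call without the high-Yam1 libraries, and that against unstimulated 2 without a filter, 1 without the high-Yam1 libraries and 0 to 1 on leaving out single libraries. The share of all genes called is not given for these settings. The counts therefore show how calls moved, and not whether these genes moved more than others. The causes were not tested. The Yam1 covariate and the joint removal of libraries were chosen after seeing the data.

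Among the genes with values per library, the only ones whose difference from H-CM at 24 h was recomputed, 3 turned in sign, none of them called: Cdkn1b (-0.022 with the Yam1 covariate, -0.07 without H-CM replicate 1, -0.11 without TME-CM replicate 2, -0.12 without the high-Yam1 libraries), E2f1 (-0.0018 without H-CM replicate 3, -0.0065 without TME-CM replicate 2, -0.0072 without the high-Yam1 libraries) and Mcm2 (-0.0098 without H-CM replicate 3). Leaving out single libraries gave -0.11 to 0.18 for Cdkn1b, -0.0065 to 0.31 for E2f1 and -0.0098 to 0.21 for Mcm2. The replicate number as a block is a pairing only weakly seen in the data. With it, 6, 5 and 17 genes were called for TME-CM against H-CM, TME-CM against unstimulated and 24 h against 12 h in TME-CM.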
